A study of Mus musculus with 2 samples.

Results

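The posterior end of the mouse HoxD gene cluster was examined in developing digits, through its genes Hoxd13, Hoxd12, Hoxd11 and Hoxd10 and the neighbouring genes Evx2 and Lnp. The 6 genes were taken by symbol from a table of transcripts and make up 6 of its 23157 genes and 17 of its 64053 transcripts. Their values did not enter the rule, but they were proposed with earlier results of these data known. RNA-seq was performed on distal forelimbs, the presumptive digits, of E12.5 embryos of the strain C57Bl6CBAF1. A single library was made from wild-type embryos and a single one from embryos homozygous for HoxD Inv(TpSB1-Itga6), an inversion of 2.4 Mb. The design text gives 3 pairs of forelimbs as the dissected material, so each library is a pool and embryos cannot be told apart. The inversion has its breakpoints at TpSB1, in the gene desert flanking Evx2 and Lnp, and at Itga6. It carries the regulatory islands I and II away from the Hoxd genes, while islands III to V and all 6 genes keep their place.

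Hox genes encode homeodomain transcription factors and are expressed along the body axis and the limbs in an order that follows their position in the cluster. In the digits the posterior Hoxd genes are driven by enhancers spread over the gene desert on the Evx2 side, and Hoxd13, at the end of the cluster nearest to them, is the member most strongly expressed. Evx2 encodes a homeodomain factor of the even-skipped family, and Lnp, or Lunapark, encodes a membrane protein that stabilizes the junctions of the tubular endoplasmic reticulum. Both lie on the enhancer side of Hoxd13, and are known to share the digit expression of the Hoxd genes. The comparison asked what became of their mRNA when part of this enhancer landscape was moved away.

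The promoters of the 3 genes with the lowest ratios, Evx2, Hoxd12 and Hoxd13, are shown with that of Hoxd10, whose ratio was nearest to 1. Each is the RefSeq sequence on GRCm38.p6 from 250 bases before the start site to 50 bases after it, 5′ to 3′ on the gene's own strand. The windows are chr2:74659508-74659807 on the minus strand for Evx2, and on the plus strand chr2:74667975-74668274 for Hoxd13, chr2:74674763-74675062 for Hoxd12 and chr2:74691641-74691940 for Hoxd10. Capitals mark every match, on either strand, to TATAAA, to CCAAT, to CAATAAA, a motif of the HOX13 type, or to a core of the CTCF motif, CCA, 2 free bases, AG, 2 free bases and GGC.
Evx2: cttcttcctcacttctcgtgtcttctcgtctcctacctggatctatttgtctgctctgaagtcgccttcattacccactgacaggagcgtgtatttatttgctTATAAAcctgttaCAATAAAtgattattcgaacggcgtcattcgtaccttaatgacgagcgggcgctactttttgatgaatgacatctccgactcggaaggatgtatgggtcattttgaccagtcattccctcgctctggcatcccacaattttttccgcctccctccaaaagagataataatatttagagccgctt
Hoxd13: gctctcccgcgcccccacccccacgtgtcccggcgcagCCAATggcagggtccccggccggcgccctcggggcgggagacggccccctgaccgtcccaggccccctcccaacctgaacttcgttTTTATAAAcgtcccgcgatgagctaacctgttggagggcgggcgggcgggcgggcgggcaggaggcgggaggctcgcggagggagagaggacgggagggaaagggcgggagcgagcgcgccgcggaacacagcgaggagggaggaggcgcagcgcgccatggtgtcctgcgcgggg
Hoxd12: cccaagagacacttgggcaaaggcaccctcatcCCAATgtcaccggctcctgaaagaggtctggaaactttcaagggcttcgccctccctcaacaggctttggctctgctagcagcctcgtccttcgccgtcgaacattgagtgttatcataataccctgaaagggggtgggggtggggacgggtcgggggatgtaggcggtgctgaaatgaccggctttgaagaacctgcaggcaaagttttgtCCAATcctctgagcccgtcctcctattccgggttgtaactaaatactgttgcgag
Hoxd10: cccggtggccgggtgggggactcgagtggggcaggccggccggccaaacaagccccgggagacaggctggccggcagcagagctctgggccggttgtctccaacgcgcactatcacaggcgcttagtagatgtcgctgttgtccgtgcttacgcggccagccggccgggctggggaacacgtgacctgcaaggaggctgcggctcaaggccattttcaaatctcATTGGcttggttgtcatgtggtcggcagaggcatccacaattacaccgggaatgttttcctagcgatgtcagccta

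Of the 4 promoters printed, those of Evx2 and Hoxd13 held TATAAA, which 13.6% of all 32851 promoters of this length held. It began at position -147 in Evx2 and at -124 in Hoxd13, where the reverse match TTTATA at -126 overlaps it. CCAAT, found in 37.4% of all promoters, stood at -212 in Hoxd13 and at -217 and -5 in Hoxd12, and its reverse ATTGG at -26 in Hoxd10. CAATAAA was matched in Evx2 alone, at -134, against 4.60% of all promoters. CAATAAA and CCAAT share the letters CAAT, and no match of one overlapped a match of the other. The Lnp promoter, listed under the symbol Lnpk, held ATTGG at -28 and at 12, and neither promoter listed for Hoxd11 held any of the 4 motifs. The CTCF core, present in 2.43% of all promoters, was found in none of the 7 promoters of the 6 genes. The share of G and C was 74.3% for Hoxd13 and 44.3% for Evx2, on either side of the median of 52.7% over all promoters. These letter matches describe the windows and say nothing of whether a factor binds there.

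Depth was close in both libraries, with totals of 9280660 reads for wild type and 9466154 reads for the inversion. Values are given as normalized reads, the reads of a gene after scaling by the library's size factor, and 1 read was worth 1.013 in wild type against 0.988 in the inversion. Ratios are inversion over wild type, on the scale log2(value + 1). With 1 library per genotype there is no replicate and no test, and the 95% intervals cover counting error only. A mean of 10 normalized reads or more was required, which 16756 genes reached, and their median log2 ratio was -0.02. The forelimb gene Tbx5 had 1684 and 1935 normalized reads and the autopod gene Hoxa13 1098 and 1193, both being markers of the labelled tissue, while the hindlimb gene Tbx4 had 435 and 389 and Pitx1 44.6 and 28.6. Xist had 2607 reads in wild type against 13 in the inversion, and the sum of 4 Y-linked genes was 3.33-fold higher in the latter. Sex and genotype therefore cannot be told apart in these libraries. In such bulk tissue, fewer cells of a type and less RNA per cell cannot be told apart either.

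All 6 genes were lower in the inversion library, and Evx2, Hoxd12 and Hoxd13 were at least 1.5-fold lower. These 3 of 6 stand beside 2.04% of all genes that were at least 1.5-fold lower, and the 6 of 6 below a log2 ratio of 0 beside 53.4% of all genes. None of the 6 was 2-fold lower, which 0.483% of all genes were. The 95% interval lay wholly below 0 for 5 of the 6, against 13.0% of all genes. That share includes genes with far fewer reads, whose intervals are wider, and it was not computed for genes of similar level. The median log2 ratio of the 6 was -0.48. Their mean levels ran from 687 to 1898 normalized reads, and of the 8519 genes at or above a mean of 300, a limit set after the values were seen, 21 genes or 0.247% were at least 1.5-fold lower. Summed over the 6, 7875 normalized reads in wild type stood against 5385 in the inversion, a ratio of 0.684.

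**Figure D1:**
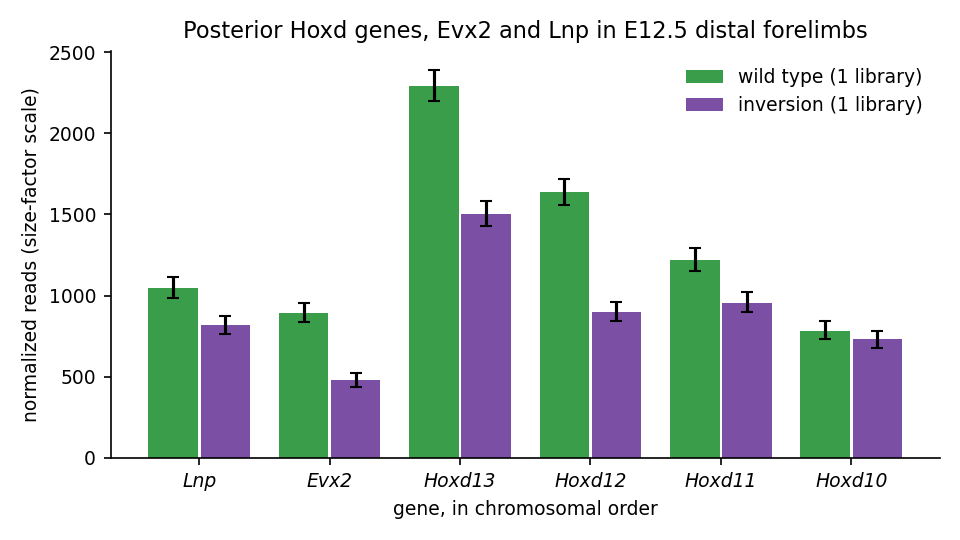
Normalized reads of the 6 genes in the wild-type and the inversion library, with 95% Poisson intervals that cover counting error only (1 library per genotype). Each gene is lower in the inversion library, from Hoxd13 with 2292 and 1503 normalized reads to Hoxd10 with 784 and 730, where the intervals overlap.

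Hoxd13 (chr2:74668310-74671599, plus strand, GRCm38), a main regulator of digit patterning, was the most abundant of the 6 in both libraries. It had 2292 normalized reads in wild type (95% interval 2199 to 2389) and 1503 in the inversion (1429 to 1581). These intervals are far apart, and the ratio of 0.656 gave a log2 ratio of -0.61 (-0.70 to -0.51), the 314th lowest of the 16756 genes. The interval includes -0.58, the log2 value of a 1.5-fold decrease, so Hoxd13 counted as 1.5-fold lower by a margin within counting error. Its normalized reads, not corrected for length, were above those of 97.7% of the genes with reads in wild type and of 93.9% in the inversion.

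Hoxd12 (chr2:74675013-74677705, plus strand), a neighbour with largely overlapping digit expression, had 1636 normalized reads in wild type (1558 to 1718) and 901 in the inversion (843 to 961). The log2 ratio of -0.86 (-0.98 to -0.74) was the lowest among the 4 Hoxd genes and the 141st lowest of all genes. Of the 11831 genes whose mean reached 100 normalized reads, 22 had a lower ratio. Evx2 (chr2:74652991-74659557, minus strand), which is transcribed away from Hoxd13, had 894 normalized reads in wild type (836 to 955) and 479 in the inversion (437 to 524). Its ratio of 0.536 was the lowest of the 6, at a log2 ratio of -0.90 (-1.06 to -0.74), and 16 of the 11831 better covered genes lay below it. The log2 ratios of Evx2 and Hoxd12 differed by 0.04, with an interval of -0.24 to 0.16 for Evx2 minus Hoxd12, which does not show that they are alike.

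Hoxd11 (chr2:74679557-74687016, plus strand), which acts in the forearm as well as in the digits, had 1221 normalized reads in wild type (1153 to 1292) and 957 in the inversion (898 to 1019). The intervals are apart, but the log2 ratio of -0.35 (-0.48 to -0.23) did not reach 1.5-fold. Hoxd10 (chr2:74691924-74695105, plus strand), the last of the genes in this series toward the anterior end, had 784 normalized reads in wild type (729 to 841) and 730 in the inversion (678 to 784). Its log2 ratio was -0.10 (-0.25 to 0.04), so that a difference was not detectable at this depth. Lnp (chr2:74520291-74578948, minus strand) lies farthest on the other side and had 1047 normalized reads in wild type (984 to 1113) and 816 in the inversion (761 to 873). Its log2 ratio of -0.36 (-0.49 to -0.23) was close to that of Hoxd11.

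**Figure D2:**
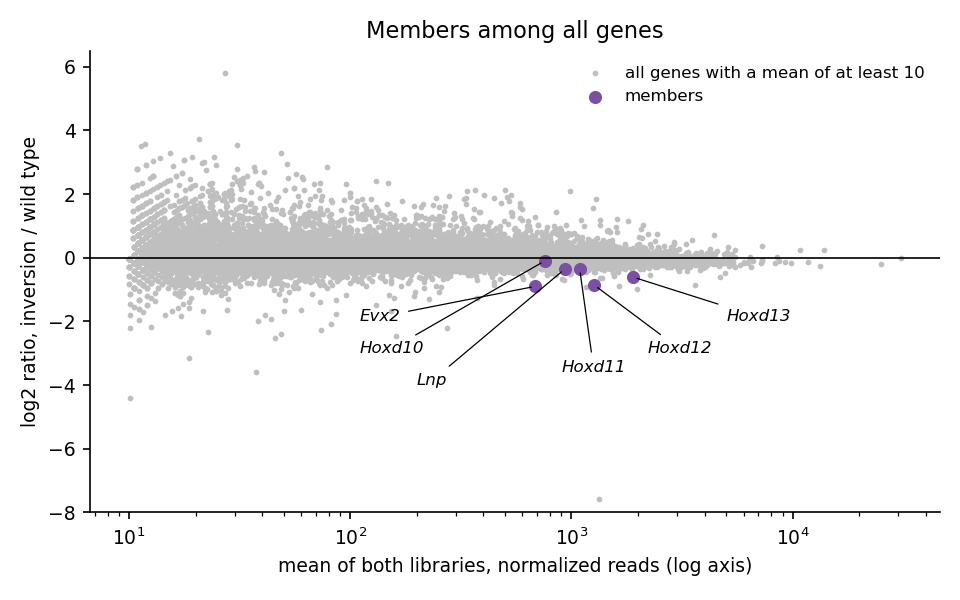
Log2 ratio of inversion over wild type against the mean of both libraries (normalized reads, log axis) for the 16756 genes that passed the filter, with the 6 genes in purple. All 6 lie below 0, and Evx2, Hoxd12 and Hoxd13 sit at the lower edge of genes of their level.

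Compared with each other, the 6 genes differed in the size of their ratio. Of the 15 pairs, 13 had a difference in log2 ratio whose exact 95% interval did not include 0, and 2 pairs, Lnp with Hoxd11 and Evx2 with Hoxd12, had one that did. Among the 7998000 pairs of the 4000 genes whose mean lay in the range of the 6, 39.5% had an interval without 0, by a Wald interval that gave the same 13 of 15 here. Within the cluster, Hoxd12 was below Hoxd13 by 0.25 (0.10 to 0.40), so the gene at the cluster's end did not have the lowest ratio. From Hoxd12 on, the ratios came closer to 1 with each gene. Hoxd12 minus Hoxd11 was -0.51 (-0.68 to -0.34), and Hoxd11 minus Hoxd10 was -0.25 (-0.44 to -0.06). On the other side of Hoxd13, Lnp minus Evx2 was 0.54 (0.33 to 0.75), so the ratio of the more distant gene was again closer to 1. Measured from the start of Hoxd13, the starts lie 6.70 kb away for Hoxd12, 8.75 kb for Evx2, 11.2 kb for Hoxd11, 23.6 kb for Hoxd10 and 89.4 kb for Lnp. These are the outermost GENCODE starts. For Hoxd11 this is the start of the processed transcript ENSMUST00000048086, and the coding one, ENSMUST00000142312, starts farther away, at chr2:74682323. The RefSeq starts behind the promoter windows can differ, as for Hoxd13.

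Within the sum of Hoxd10 to Hoxd13, Hoxd12 made up less and Hoxd10 more in the inversion library. Reads of Hoxd10 to Hoxd13 summed to 5934 normalized reads in wild type against 4091 in the inversion, a log2 ratio of -0.54 (-0.59 to -0.48). Shares of this sum do not depend on how the libraries were scaled. Hoxd12 made up 27.6% of it in wild type (95% interval, exact Clopper-Pearson, 26.4 to 28.7) and 22.0% in the inversion (20.8 to 23.3). Hoxd10 made up 13.2% (12.4 to 14.1) and 17.8% (16.7 to 19.0). The share of Hoxd12 was thus lower and that of Hoxd10 higher, each with intervals apart. Hoxd11 had 20.6% (19.6 to 21.6) and 23.4% (22.1 to 24.7), also apart. That share rests on counting 3 transcripts of Hoxd11. If only its most abundant transcript was counted, the share was 8.80% (8.04 to 9.61) and 10.5% (9.53 to 11.6), and if only its protein-coding one was, 7.53% (6.82 to 8.29) and 8.32% (7.42 to 9.29). In both cases the intervals of the libraries overlap. Hoxd13 kept the largest share, with 38.6% (37.4 to 39.9) in wild type and 36.7% (35.3 to 38.2) in the inversion, and these intervals overlap.

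**Figure D3:**
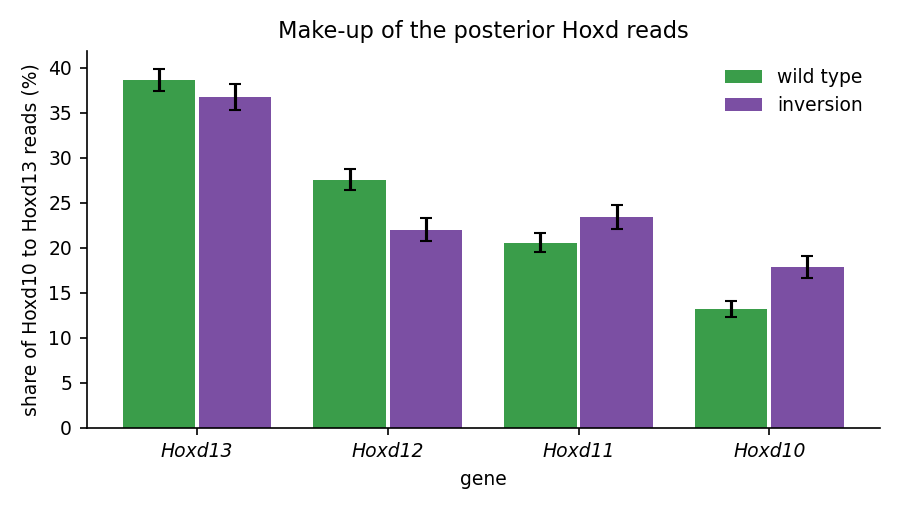
Share of each gene among the reads of Hoxd10 to Hoxd13 in the wild-type and the inversion library, in percent, with 95% Clopper-Pearson intervals. The share of Hoxd12 is lower in the inversion library, at 22.0% against 27.6%, and those of Hoxd11 and Hoxd10 are higher.

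The order of the genes by normalized reads per gene, which rises with transcript length, also differed between the libraries. In wild type it descended from Hoxd13 through Hoxd12, Hoxd11, Lnp and Evx2 to Hoxd10, and of these neighbours the intervals of Evx2 and Hoxd10 alone overlapped. In the inversion the order was Hoxd13, Hoxd11, Hoxd12, Lnp, Hoxd10 and Evx2, and there the intervals of Hoxd11 and Hoxd12, of Hoxd12 and Lnp, and of Lnp and Hoxd10 overlapped. Levels of different genes can be compared only per length. Per kb of transcript, Hoxd13 had 923 normalized reads in wild type against 605 in the inversion, Hoxd12 646 and 355, and Hoxd10 432 and 402. Hoxd10 was thus below Hoxd12 in wild type and above it in the inversion on the scale per kb, for which no interval was computed. For genes with several transcripts the scale holds for a single transcript. The Hoxd11 transcripts ENSMUST00000048086 and ENSMUST00000142312 were at 135 and 109 and at 345 and 256 normalized reads per kb. Each was below Hoxd12 in both libraries. However, they held only 37.2% and 31.4% of the Hoxd11 reads in wild type, while Hoxd12 has a single transcript. ENSMUST00000164493, which held 31.3%, has no matched length. The place of Hoxd11 against Hoxd12 therefore cannot be told per kb. The Evx2 transcript ENSMUST00000001867, with 48.8% of the gene's reads in wild type, was at 104 and 55.4 per kb, and the Lnp transcript ENSMUST00000111993, with 27.0%, was at 85.1 and 62.2.

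The transcripts of the genes with several models mostly moved with their gene. Of the 17 transcripts, 15 reached a mean of 10 normalized reads, and of these 14 were below a log2 ratio of 0, as were 50.3% of all transcripts. At least 1.5-fold lower were 5 of the 15, the 3 of Evx2 and the single ones of Hoxd12 and Hoxd13, where 4.94% of all transcripts were. The Evx2 transcript ENSMUST00000001867 had 436 normalized reads in wild type against 232 in the inversion, at a log2 ratio of -0.91. The other two, ENSMUST00000111990 at -0.89 and ENSMUST00000173623 at -0.81, lay close to it. For Hoxd11 the coding transcript ENSMUST00000142312 had 384 and 284 normalized reads (-0.43), ENSMUST00000164493 had 383 and 304 (-0.33), and ENSMUST00000048086, annotated as a processed transcript, had 455 and 368 (-0.30). How reads that fit several transcripts were counted is not given in the sources used here, which touches Evx2, Hoxd11 and Lnp. It also touches Hoxd10, which shares 104 bases with a read-through transcript described below. Hoxd12 and Hoxd13 have a single transcript each.

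Lnp held the exception. Its transcript ENSMUST00000154706 had 18 reads in wild type against 64 in the inversion, or 18.2 and 63.2 normalized reads, a log2 ratio of 1.74 (1.02 to 2.64). It was the 1 transcript of the 15 at least 1.5-fold higher, as were 13.3% of all transcripts. Its share of the Lnp reads was 1.74% in wild type (1.03 to 2.74) and 7.75% in the inversion (6.02 to 9.79). The transcript has an exon of 3679 bases (chr2:74551368-74555046), of which 3620 lie inside an intron of the coding transcript ENSMUST00000111993 (chr2:74551102-74554987). It is annotated as a processed transcript. Among the transcripts that passed the filter and matched the annotation, the 4437 of that type had a median log2 ratio of 0.04, the 7715 of the retained-intron type one of 0.20, and the 23662 protein-coding ones one of -0.03. At least 1.5-fold higher were 16.6% of the processed transcripts, 26.1% of the retained-intron type and 8.88% of the protein-coding ones. The part of such intronic reads in the result was not tested. Of the other Lnp transcripts, the 4 with most reads, ENSMUST00000111993, ENSMUST00000064503, ENSMUST00000127168 and ENSMUST00000134641, had log2 ratios of -0.45, -0.46, -0.42 and -0.44. ENSMUST00000145293 was at -0.49 (-1.18 to 0.16). ENSMUST00000134168 had 7 reads in wild type against 0 in the inversion, and ENSMUST00000145933 had 0 and 3. Without ENSMUST00000154706, the 7 remaining transcripts of Lnp had 1029 and 753 normalized reads, a log2 ratio of -0.45 (-0.59 to -0.31).

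**Figure D4:**
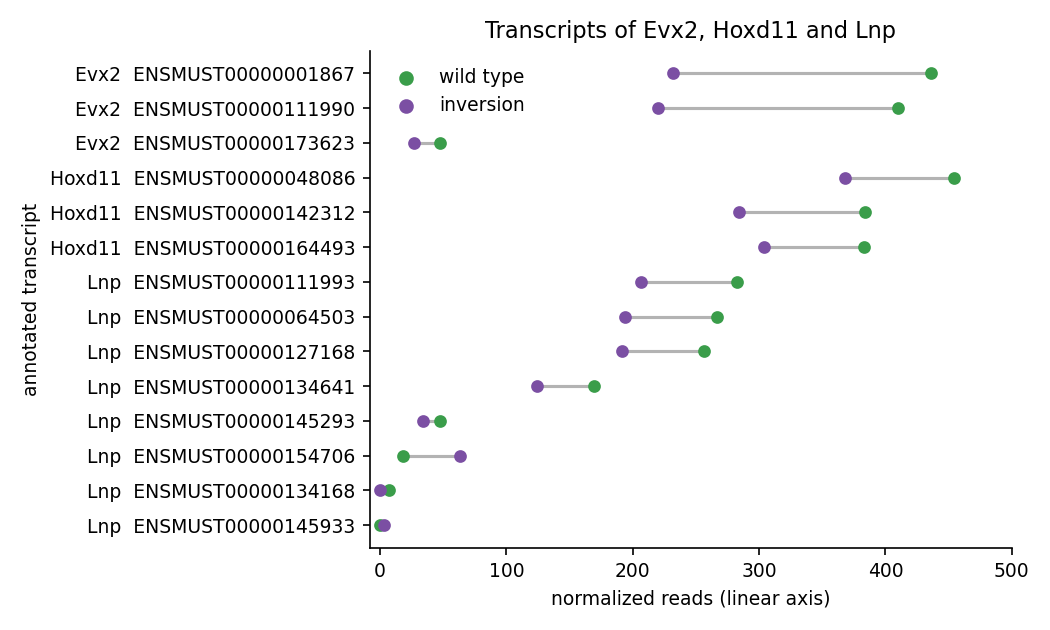
Normalized reads (linear axis) of the annotated transcripts of Evx2, Hoxd11 and Lnp in the wild-type and the inversion library, without intervals. The Lnp transcript ENSMUST00000154706 is higher in the inversion library, at 63.2 against 18.2 normalized reads, as is ENSMUST00000145933 with few reads. The other transcripts shown are lower.

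Other transcripts between Lnp and Hoxd9 give the setting of these values. The pseudogene Mrpl23-ps1, between Lnp and Evx2, had 185 and 172 reads, at a log2 ratio of -0.14 (-0.45 to 0.17). The antisense transcript 4930445N08Rik, beyond the start of Lnp, had 0 and 1 reads. RP23-313J15.15 is a read-through transcript of 623 bases that shares 455 bases with the Hoxd11 transcript ENSMUST00000048086 and 104 bases with Hoxd10. It had 150 and 117 normalized reads, at a log2 ratio of -0.36 (-0.72 to -0.0041), so reads on the shared bases cannot be assigned with certainty to Hoxd11, Hoxd10 or this transcript. Beyond Hoxd10 the direction turned. Gm14396, a lincRNA between Hoxd10 and Hoxd9, had 15 and 43 reads. Of the 178 lincRNA transcripts that passed the filter and matched the annotation, 33.7% were at least 1.5-fold higher. Hoxd9 had 259 and 421 normalized reads, at a log2 ratio of 0.70 (0.47 to 0.93). The difference of Hoxd10 minus Hoxd9 was -0.80 (-1.07 to -0.53).

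The anterior Hoxd genes, which work mainly in the proximal limb and the trunk, went the other way as a group. Of the 5 listed, 4 passed the filter, and all 4 were at least 1.5-fold higher, where 9.41% of all genes were. Hoxd8 had a log2 ratio of 1.06, while Hoxd4 with 16 and 70 reads and Hoxd3 with 18 and 140 were at 2.03 and 2.86. The annotated transcripts of Hoxd3 and Hoxd4 overlap, so their reads are uncertain. Hoxd1 had 1 and 0 reads. The posterior paralogues on the other Hox clusters, which share much of the proteins' function, had a median of 0.04 over 7 genes, 1 of them at least 1.5-fold higher and none lower. Hoxa13, which acts with Hoxd13 in the digits, had a log2 ratio of 0.12 (0.0007 to 0.24). The difference of Hoxd13 minus Hoxa13 was -0.73 (-0.88 to -0.58), and that of Hoxd13 minus Hoxc13, itself at 0.04, was -0.65 (-0.97 to -0.33). Hoxa11, with 449 and 686 normalized reads (0.61), and Hoxa10, with 1154 and 1524 (0.40), were higher, and the differences were -0.97 for Hoxd11 minus Hoxa11 and -0.50 for Hoxd10 minus Hoxa10. Of the 7 pairs of a Hoxd gene with a paralogue of its number, these 4 had an interval wholly below 0. Hoxc10 (-0.47), Hoxc11 (0.01) and Hoxc12 (-0.35), with few reads, made up the other 3 pairs. These pairs were added after the values were seen. Among pairs of genes with a mean in the range of the 6 genes, 39.5% had an interval without 0, on either side.

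Genes that act upstream of the posterior Hoxd genes in the limb had ratios within 1.5-fold where they passed the filter. Of the 12 genes listed, 1 is not analysed here, and of the other 11, 9 passed the filter and none was 1.5-fold higher or lower, with a median of -0.07. Gli3, whose repressor form restricts posterior Hoxd expression, had 3554 and 2938 normalized reads (-0.27), and the hedgehog receptor gene Ptch1 had 1663 and 1476 (-0.17). Its fellow hedgehog target Gli1 was at 0.13, and Hand2, a posterior regulator, had 833 and 910 normalized reads (0.13). The T-box genes Tbx2 (0.32) and Tbx3 (0.28) were somewhat higher. The ridge signal gene Fgf9 was at -0.07. Fgf8, with 64 and 58 reads, was at -0.18 (-0.72 to 0.36) and the zinc finger gene Sall4 at -0.15 (-0.61 to 0.30). The intervals of Fgf8 and Sall4 include a 1.5-fold decrease. Fgf4 with 1 and 3 reads and Fgf17 with 5 and 5 did not pass the filter.

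Of 10 genes reported as targets or partners of HOX13 proteins in the limb, 2 were higher and 1 was lower by 1.5-fold or more, with a median of -0.10. Among all genes, 9.41% were higher and 2.04% lower by that fold. Aldh1a2, which makes retinoic acid, had 2641 normalized reads in wild type against 1324 in the inversion, at a log2 ratio of -0.995 (-1.09 to -0.90), below the value of each of the 6 genes but with an interval that overlaps those of Evx2 and Hoxd12. Runx2, a regulator of bone formation, went the other way, with 266 and 502 (0.91), as did Hoxa11. The genes of the signals Bmp2 (-0.39), Bmp7 (-0.33) and Ihh (-0.41) and of the receptor Epha7 (-0.24) were lower by less than 1.5-fold, and Enpp2 (0.08), Sostdc1 (0.04) and Hand2 were near 0. For Lnp the matching list is that of 18 genes of the tubular endoplasmic reticulum. None of them was 1.5-fold higher or lower, their log2 ratios ran from -0.22 to 0.43 with a median of -0.05, and the tubule-shaping genes Rtn4 and Atl3 were at 0.00 and -0.05.

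Markers of other tissues also differed between the libraries. Muscle genes were the largest such group, with 5 of 8 at least 1.5-fold higher and their sum at 960 and 1975 normalized reads, 2.06-fold higher in the inversion library. They were Pax7 (2.18), Myh3 (1.88), Des (1.28), Myog (0.75) and Actc1 (0.70). Among cartilage genes 2 of 6 were at least 1.5-fold higher, Matn1 (1.68) and Acan (0.87), with a median of 0.22. Sox6 (-0.24) and Sox9 (-0.09) of the same list were below 0. In the proximal list 1 of 5 was higher, Shox2 (0.91), with a median of -0.29, and in the distal list 1 of 7, Sall3 (1.07), with a median of -0.06. Neural crest and Schwann cell genes had a median of 0.31. Erythroid genes had a median of -0.24, with 1 of 6 at least 1.5-fold lower, Klf1 at 32 and 21 reads (interval -1.51 to 0.20). Pitx1, at 44 and 29 reads (interval -1.37 to 0.07), was the 1 of 2 hindlimb genes at least 1.5-fold lower. The intervals of Klf1 and Pitx1 include 0. Endothelial genes (median -0.10, with Cdh5 at -0.08 and Kdr at -0.04), surface ectoderm genes (-0.24, with Krt5 at -0.22 and Krt14 at -0.24) and macrophage genes (-0.03, with Csf1r at -0.12 and Cx3cr1 at -0.03) had none past 1.5-fold. The part of these differences in tissue make-up, and of the difference in sex, in the lower levels of the posterior genes was not tested.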

How the data were processed

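Poly(A)-selected, strand-specific TruSeq libraries were sequenced single-end on an Illumina HiSeq by the authors, mapped to NCBIM37 (mm9; Bowtie2 in the submitters' processing notes) and assigned to transcripts with the HTSstation pipeline. The deposited table gives signal values, which are reads per transcript divided by a size factor of each library, with 0.5 written for no reads. It also holds the authors' mean of both libraries, a ratio (fold change) with its log2, and raw and adjusted p-values by the authors for each transcript. None of these was used. Columns of single samples that could not be mapped numbered 0.

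Read numbers were recovered from the steps between the values of each library. Of the values of transcripts with reads, 100% lay within 0.0051 normalized reads of a whole number of reads. The totals were 9280660 and 9466154 reads. A gene's value is the sum over transcripts that share its symbol and chromosome. Genes with a mean of at least 10 were kept, and a pseudocount of 1 was used. Intervals were exact 95% Clopper-Pearson intervals, conditional odds ratios for differences between genes, and Poisson intervals for levels, and cover counting error only. The interval method was tested on simulated data. Positions and lengths came from GENCODE M21 (GRCm38) by transcript identifier, which matched 88.1% of all transcripts and 15 of the 17 examined. Promoters came from RefSeq (GRCm38.p6), where all 6 genes were matched.

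Genes were named by rule: the 6 genes, the genes of the lists of Hox paralogues, anterior Hoxd genes, upstream genes and HOX13 targets, those past 1.5-fold in every other list or else the 2 with most reads, genes overlapping the span from Lnp to Hoxd9, and the 3 genes nearest in level to Evx2, Hoxd12 and Hoxd13. Of the genes this rule takes from the neural crest list, none is reported here. Outside the rule, Pax3, Sox6 and Sox9 were named as the genes below 0 in the muscle and cartilage lists. The pairs of Hoxd genes with paralogues of their number, and of Hoxd10 with Hoxd9, were added after the values were seen, as was the share of called pairs among genes of similar level. The genes, the lists and the threshold of 1.5-fold were chosen with earlier results of these data known. Alternatives were other pseudocounts, filters, thresholds, scalings, and choices of transcript. Intervals were computed with scipy 1.17.1, tables handled with pandas 2.3.3 and numpy 2.4.6, and plots drawn with matplotlib 3.10.9, under Python 3.11.15.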

Additional observations from a re-analysis of the deposited data

How the results depend on the processing

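No paired analysis was possible because each genotype has 1 library. Every one of the 38 alternatives for the ratios of the 6 genes stayed within the counting interval, among them 2 chosen after seeing the data that added the read-through reads to Hoxd11 or Hoxd10. The median of the 6 was -0.54 with protein-coding transcripts only. The count of 3 lower genes among the 6 became 0 at 2-fold and 0 at 4-fold. Over all genes the count of 341 lower genes became 1716 without the filter, 62 with a mean of at least 100, 81 at 2-fold and 13 at 4-fold. With the transcript of highest mean standing for each gene, the shares of Hoxd13, Hoxd12, Hoxd11 and Hoxd10 were 44.4%, 31.7%, 8.80% and 15.2% in wild type and 42.9%, 25.7%, 10.5% and 20.8% in the inversion. With protein-coding transcripts only they were 45.0%, 32.1%, 7.53% and 15.4%, and 44.0%, 26.4%, 8.32% and 21.4%. By construction these move because Hoxd11 alone of the 4 has several transcripts, and each share differed between the libraries in the same direction. Of 128 list medians 116 stayed the same. With a mean of at least 100, the paralogues were at 0.26, anterior Hoxd genes at 0.88, hindlimb genes at -0.16, upstream genes at 0.13 and neural crest genes at -0.0019, the last 2 with a change of sign. With the transcript of highest mean, upstream genes were at 0.10, HOX13 targets at 0.0643 and macrophage genes at 0.0401, each with a change of sign, and neural crest genes at 0.0441. With protein-coding transcripts, macrophage genes changed sign to 0.0141 and cartilage genes were at 0.13. Without the filter, anterior Hoxd genes were at 1.06. For the lists, the cause was not tested. No spread between embryos can be had from 1 pool per genotype, and genes with few reads, such as Hoxd3, Hoxd4 and the Lnp transcript ENSMUST00000154706, have wide intervals.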

Other observations

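For each of the 3 genes with the lowest ratios, the genes outside the cluster with the nearest pair of levels were found. Most had a ratio closer to 1 than the gene itself, which follows largely from choosing the 3 genes by their low ratios. Likeness was measured as the Euclidean distance between the values of log2(value + 1) in the 2 libraries, which is a description and carries no statement on shared control. Nearest to Evx2, at a log2 ratio of -0.90, were Btbd11 (distance 0.242, log2 ratio -0.56), Klhl5 (0.252, -0.54) and Irx1 (0.270, -0.66), an Iroquois homeobox gene with 742 normalized reads in wild type against 469 in the inversion. Nearest to Hoxd12, at -0.86, were Col4a3bp (0.207), with 1518 and 797 normalized reads at a log2 ratio of -0.93, Pak1 (0.232, -0.64) and Papss2 (0.259, -0.64), an enzyme gene of sulfate activation. Nearest to Hoxd13, at -0.61, were Snx6 (0.158, -0.39), Cct7 (0.227, -0.29) and Kars (0.228, -0.37).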
